A study of Homo sapiens with 16 samples.

Results

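The comparison described here sets 3 libraries of human embryonic stem cells transfected with siRNA against VRTN beside 4 libraries transfected with control siRNAs, 7 of the 16 libraries of the series, and follows every expressed gene across them. The members were chosen by their sample labels, with no measured value involved. All cells were of the line H9, a widely used line of human embryonic stem cells, in a version with an EGFP gene driven by the Rex1 promoter, kept feeder-free on Matrigel in mTeSR1 medium. The VRTN group (n = 3) received a pooled synthetic siRNA and was harvested at 48 h. The controls were 2 libraries with an enzymatically made siRNA pool against Renilla luciferase, called Luciferase, and 2 with an siRNA labelled only as control, called Control, whose nature and supplier are not given in the sources used here. The labels give 30 to 50 nM siRNA and no harvest time for the controls, and the description of the transfection speaks of more days in culture than 48 h. A group of 3 libraries with siRNA against SALL4, also harvested at 48 h, shares no library with the controls and served for a further comparison. The labels call the replicates biological but do not say which were grown in parallel. Time of harvest, siRNA type and target cannot be told apart in the comparison with the controls.

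VRTN encodes vertnin, a DNA-binding protein known from pigs, in which variants of the gene are associated with the number of thoracic vertebrae, and from work on the segmentation of the paraxial mesoderm. Embryonic stem cells keep the ability to form all tissues of the body through a set of transcription factors around POU5F1, SOX2 and NANOG, and through FGF, NODAL and WNT signals from the medium and from their neighbours. They grow as an epithelial sheet held together by E-cadherin and keratins, and take up amino acids at a high rate. The comparison asks which transcripts move when the VRTN transcript is reduced in such cells.

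Polyadenylated RNA was read as 80 bp single ends, and levels are given as CPM, the counts of a gene scaled to the size of its library, after TMM normalisation. The 7 libraries held 18597262 to 28662389 counts, with 15539 to 16542 genes at 10 or more counts each, and 3 counts corresponded to 0.105 to 0.161 CPM before scaling. Mitochondrial transcripts took 27.9 to 36.9% of the counts, with 29.2, 36.9 and 36.7% in the 3 VRTN siRNA libraries. The markers of the labelled cell type were present: POU5F1 stood at 262, 204 and 238 CPM with VRTN siRNA and at 188 to 207 CPM in the controls, and SOX2 at 202 to 234 CPM and 178 to 207 CPM. ZFP42, the gene also known as REX1, was listed at 0 in all 7 libraries. HAND1 of mesoderm and DCN of fibroblasts were at 0 in every library, and PAX6, CDX2, SOX17, COL3A1 and LUM were at 0 in at least 3 of them and at no more than 1.36 CPM in the rest. Other markers of these cell types were read. The fibroblast collagens COL1A1 and COL1A2 were at 494 to 1759.8 CPM and 30.4 to 56.6 CPM, FOXA2 of endoderm at 3.12 to 11.8 CPM, and TBXT, EOMES, SOX1, GATA2, GATA3 and SOX10 at 0 to 4.63 CPM. Levels summed over a list ran lower with VRTN siRNA, with overlapping ranges, for neural crest (15 genes, 75.5 to 138 CPM against 124 to 213 CPM in the controls), lateral and extraembryonic mesoderm (19 genes, 62.1 to 102 against 95.5 to 125 CPM) and trophectoderm (20 genes, 23.4 to 27.7 against 27.5 to 34.2 CPM). They covered like ranges for primitive streak and endoderm (20 genes, 58.8 to 70.6 against 53.8 to 67.3 CPM) and neuroectoderm (34 genes, 151 to 190.3 against 132 to 198 CPM). The part of such cells in the results was not tested.

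VRTN itself (chromosome 14, 74303069 to 74360008, plus strand, GRCh38) was read at 19.3, 20.8 and 23.7 CPM in the VRTN siRNA libraries and at 148 and 137 CPM with Luciferase and 134 and 154 CPM with Control siRNA. Every VRTN siRNA library lay below every control library, and the 3 SALL4 siRNA libraries stood at 155, 143 and 136 CPM, close to the controls. The log2 fold change was -2.75 (SE 0.13, adjusted p = 2.04e-16), so that 14.9% of the control level remained. Changes of other genes are given on the same log2 scale. The neighbours of VRTN on chromosome 14 did not pass the test. ABCD4, a cobalamin transporter that starts beside VRTN on the opposite strand, was at 25.4, 20.02 and 29.1 CPM against 12.2 to 19.3 CPM in the controls (log2 change 0.69, SE 0.22, adjusted p = 0.167). NPC2, a cholesterol-binding protein of the lysosome, differed by -0.16 (SE 0.12, adjusted p = 0.733) and ISCA2, an iron-sulfur cluster assembly factor, by 0.44 (SE 0.32, adjusted p = 0.719).

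Against the mean of both controls, 223 of 19772 genes tested (1.13%) passed an adjusted p of 0.05, 88 higher (0.445%) and 135 lower (0.683%). Of these, 32 rose and 46 fell by at least 2-fold. In 217 of the 223 each VRTN siRNA library was above, or each was below, all 4 controls, which was the case for 12.0% of all genes tested. Nearly all called genes were protein-coding, 215 of 14589 tested, while 5 of 1861 lincRNA or antisense genes passed. Calls became more frequent with level, from 0.103% of genes between 0 and 2 log2 CPM to 5.38% at 8 log2 CPM or more, where the median size of the called changes was 0.49 on the log2 scale. The same fit called 0 genes between Control and Luciferase siRNA, as did DESeq2 and limma-voom, and 211 (1.07%) had an unadjusted p under 0.05. Without VRTN replicate 1, 2 or 3 the count was 141, 140 and 135, and 74 genes, 33 higher and 41 lower, were called in all 7 fits that left out 1 library. Against Luciferase alone 89 genes passed and against Control alone 95. In such bulk RNA, fewer cells of a type and less RNA per cell cannot be told apart.

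**Figure D1:**
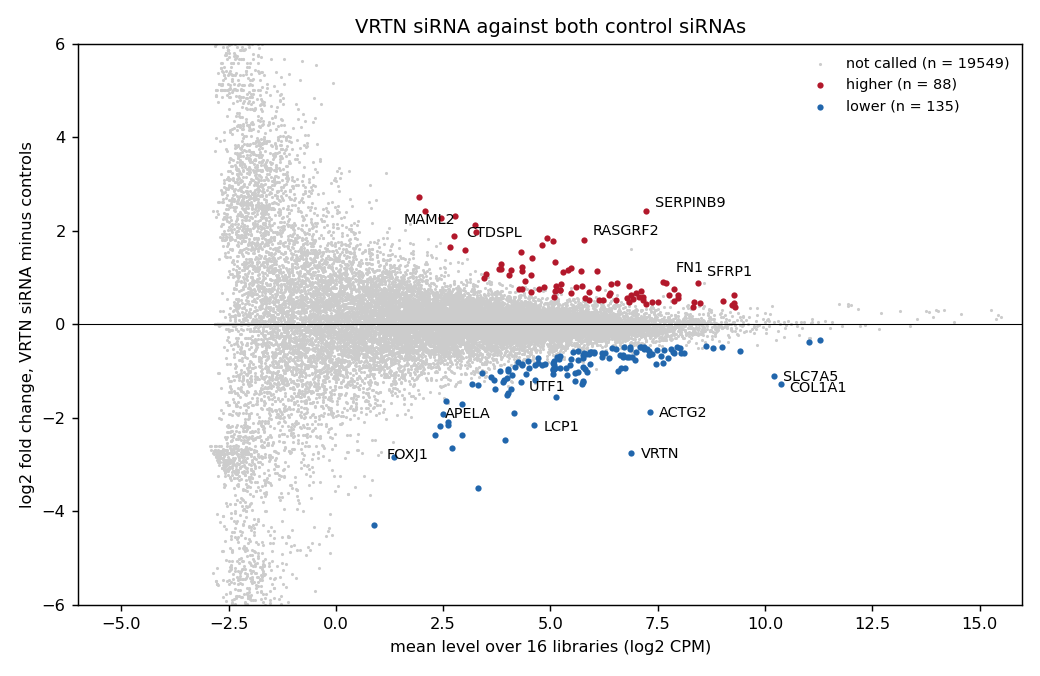
Each point is a gene tested, with its mean level over 16 libraries (log2 CPM) on the horizontal axis and the log2 fold change of VRTN siRNA over the mean of both control siRNAs on the vertical axis. Red marks the 88 genes called higher and blue the 135 called lower; 224 genes, 1 of them called, fall outside the axes, and VRTN stands at -2.75.

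The genes with large rises given first kept their call whichever library was left out. For the largest and the most abundant changes in each direction that trait was a condition of being named. No overlap between VRTN siRNA and control libraries was another condition, so neither is a separate result for these genes. SERPINB9, an intracellular inhibitor of granzyme B (chromosome 6, 2887266 to 2903280, minus strand), stood at 224, 217 and 509 CPM with VRTN siRNA and at 32.1 and 89.6 CPM with Luciferase and 35.1 and 77.6 CPM with Control siRNA. All 3 VRTN siRNA libraries were above all controls, replicate 3 by far the most, and the controls themselves split by replicate number, replicate 2 of each siRNA being higher. Its log2 fold change was 2.43 (SE 0.29, adjusted p = 2.99e-06). RASGRF2, a calcium-responsive exchange factor that activates RAS (chromosome 5, 80960672 to 81230156, plus strand), was at 88.99, 77.7 and 127 CPM against 17.1 and 38.1 CPM with Luciferase and 17.7 and 39.4 CPM with Control siRNA and rose by 1.80 (SE 0.23, adjusted p = 9.62e-06). It showed the same order of libraries, with the controls split by number and no overlap with the VRTN siRNA libraries.

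CTDSPL, a phosphatase related to those that act on the tail of RNA polymerase II (chromosome 3, 37861960 to 37984469, plus strand), was at 73.6, 46.1 and 56.6 CPM with VRTN siRNA and at 21.8 and 15.8 CPM with Luciferase and 19.5 and 15.04 CPM with Control siRNA. The lowest VRTN siRNA library had more than the highest control library, and the log2 fold change was 1.71 (SE 0.19, adjusted p = 1.07e-06). FEZ1, an adaptor for kinesin transport in axons (chromosome 11, 125442881 to 125592568, minus strand), was at 38.6, 40.8 and 42.5 CPM against 18.7 and 12.4 CPM with Luciferase and 11.5 and 13.5 CPM with Control siRNA and rose by 1.54 (SE 0.19, adjusted p = 8.58e-06). Its 3 VRTN siRNA libraries lay close together, well above the controls. Also called higher were the glycoprotein PROM1 (CD133), which marks stem and progenitor cells and rose by 1.24, the extracellular proteoglycan SPOCK1 (1.20) and the endosomal membrane protein ENTREP1 (1.15), with no overlap between the groups for any of these. MAML2, a coactivator of Notch target genes, was at 14.2 to 17.99 CPM against 2.44 to 5.78 CPM and rose by 1.98 (SE 0.29, adjusted p = 1.00e-04).

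Other genes that rose were more abundant. FN1, the fibronectin of the extracellular matrix (chromosome 2, 215360440 to 215436172, minus strand), was at 259, 257 and 366 CPM with VRTN siRNA and at 145 and 171 CPM with Luciferase and 149 and 168 CPM with Control siRNA. Its log2 fold change was 0.89 (SE 0.12, adjusted p = 1.89e-05). NLGN4X, an X-linked adhesion molecule of synapses, rose, at 261 to 392 CPM against 164 to 211 CPM in the controls (log2 change 0.77, SE 0.13, adjusted p = 5.27e-04). GPC4, a heparan sulfate proteoglycan that presents growth factors, rose by 0.63 (SE 0.11, adjusted p = 0.00124) and lost its call with replicate 2 of the controls alone (adjusted p = 0.0712). TMSB4X, thymosin beta 4, which binds actin monomers, rose by 0.91 (SE 0.13, adjusted p = 4.78e-05). Its processed copy TMSB4XP8 rose too (1.16), but the pair can share reads and the deposited counts cannot separate them.

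**Figure D2:**
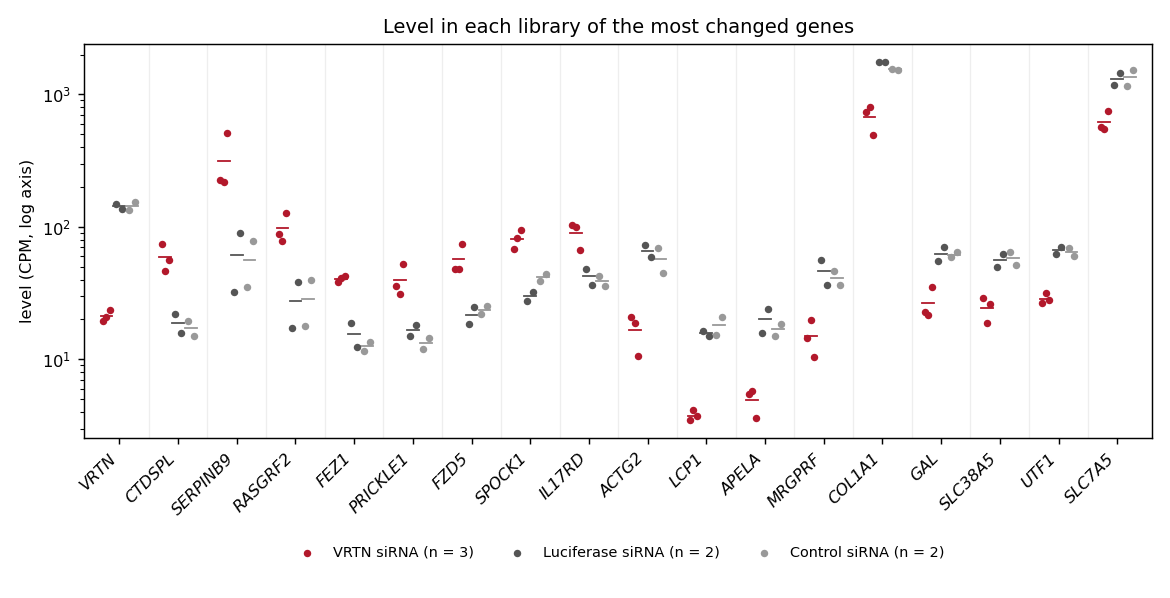
Level of each gene in each library (CPM, log axis), with points for VRTN siRNA (red, n = 3), Luciferase siRNA (dark grey, n = 2) and Control siRNA (light grey, n = 2) and a line at each group's mean. From CTDSPL to IL17RD every red point lies above all grey points, and for VRTN and from ACTG2 to SLC7A5 every red point lies below them, with APELA at 3.58 to 5.80 CPM against 15.02 to 24.1 CPM. Apart from VRTN, the genes shown were picked for having no overlap.

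The genes that fell encode proteins of many kinds. Those given here were picked for a call in all 7 fits that left out 1 library and for no overlap with the controls. LCP1, plastin 2, a protein that bundles actin filaments (chromosome 13, 46125920 to 46211871, minus strand), was at 3.47, 4.11 and 3.70 CPM with VRTN siRNA and at 16.4 and 14.95 CPM with Luciferase and 15.3 and 20.8 CPM with Control siRNA. The groups were far apart, and the log2 fold change was -2.16 (SE 0.26, adjusted p = 4.42e-06). APELA, the secreted peptide ELABELA that acts on the apelin receptor and is made by embryonic stem cells (chromosome 4, 164877004 to 164898965, plus strand), was at 5.42, 5.80 and 3.58 CPM against 15.9 and 24.1 CPM with Luciferase and 15.02 and 18.6 CPM with Control siRNA. It fell (log2 change -1.90, SE 0.25, adjusted p = 1.99e-05). GAL, the neuropeptide galanin, which stem cell cultures also produce, was at 22.6, 21.7 and 34.9 CPM against 55.04 and 70.04 CPM with Luciferase and 58.9 and 64.7 CPM with Control siRNA (log2 change -1.23, SE 0.19, adjusted p = 1.19e-04). Both peptides were below every control in each of the 3 libraries.

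COL1A1, the main chain of type I collagen (chromosome 17, 50183289 to 50201632, minus strand), was at 733, 808 and 494 CPM with VRTN siRNA and at 1759.8 and 1751 CPM with Luciferase and 1568 and 1534 CPM with Control siRNA. It had the highest level among the genes that fell by 2-fold or more, and the 4 controls lay close together while VRTN replicate 3 was lowest (log2 change -1.28, SE 0.18, adjusted p = 4.64e-05). The orphan receptor MRGPRF (-1.55), the long noncoding RNA LINC01356 (-1.27) and STAT6 (-1.23), the transcription factor of interleukin 4 signalling, fell as well, each without overlap. Among abundant genes PXN, the focal adhesion adaptor paxillin, was at 147, 141 and 122 CPM against 247 and 229.9 CPM with Luciferase and 244 and 242 CPM with Control siRNA. It fell (log2 change -0.82, SE 0.11, adjusted p = 1.89e-05). CLUH, which binds messenger RNAs of mitochondrial proteins, fell, at 109.9 to 125 CPM against 175 to 192 CPM in the controls (log2 change -0.64, SE 0.11, adjusted p = 0.00117).

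Among actin and contractile genes, 4 of 26 tested were lower and 2 higher, against 0.683% and 0.445% of all genes, and the median log2 fold change of the list was -0.13 (0.01 over the 12224 genes of at least 1 log2 CPM, to which list medians are restricted). Those shares stand beside the lists below too, but they are low for lists of well expressed genes. In either direction 2.48% of genes between 4 and 6 log2 CPM were called, and 4.62% between 6 and 8. Of the 12224 genes 134 were lower and 87 higher. ACTG2, the gamma actin of visceral smooth muscle (chromosome 2, 73892314 to 73919865, plus strand), was at 20.7, 18.9 and 10.6 CPM with VRTN siRNA and at 72.7 and 58.9 CPM with Luciferase and 69.2 and 44.6 CPM with Control siRNA. Its log2 fold change of -1.87 (SE 0.17, adjusted p = 2.50e-08) was kept in every alternative run. The highest VRTN siRNA library held less than the lowest control. VCL, the focal adhesion protein vinculin, fell, at 395 to 512 CPM against 628 to 679 CPM in the controls (log2 change -0.49, SE 0.10, adjusted p = 0.00811), as did CNN1, the smooth muscle protein calponin (-0.60), and ACTA1, skeletal muscle actin (-0.70). ACTA2, smooth muscle alpha actin, went the other way, at 30.7, 39.9 and 7.40 CPM against 8.87 and 3.24 CPM with Luciferase and 9.86 and 1.73 CPM with Control siRNA (log2 change 2.13, SE 0.54, adjusted p = 0.0386). VRTN replicate 3 lay inside the control range. MYL6, a myosin light chain, rose by 0.68. The actins are near-identical in their coding parts, and how reads shared between them were counted is not given in the sources used here.

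Several of these calls were lost when 1 library was left out. The call of VCL was lost without VRTN replicate 3 (adjusted p = 0.109). That of CNN1 was lost without VRTN replicate 2 (0.0843), VRTN replicate 3 (0.148), Luciferase replicate 1 (0.1003) or Control replicate 1 (0.109). ACTA1 lost its call without VRTN replicate 1 (0.0510), VRTN replicate 2 (0.0747), VRTN replicate 3 (0.283) or Control replicate 1 (0.181). ACTA2 was no longer called without VRTN replicate 1 (0.165) or VRTN replicate 2 (0.315), and MYL6 without VRTN replicate 3 (0.115) or Control replicate 2 (0.0772). The adjusted p stands in parentheses. Without VRTN replicate 3 the list had 1 lower member, and without VRTN replicate 2 or Control replicate 1 it had 2. It had 1 higher member without VRTN replicate 1, 2 or 3 or without Control replicate 2.

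The promoters of actin genes are known for the CArG box, the binding sequence of serum response factor, so the RefSeq windows (GRCh38.p14) of the listed genes were searched for it in the 250 bases before each start, on both strands. The 130 bases next to the start of ACTG2 and ACTA1, which fell, and of ACTG1 and FLNA, which were not called, are shown 5′ to 3′ on the strand of the gene, with the box in capitals.
ACTG2 (chr2:73892878-73893007, plus strand): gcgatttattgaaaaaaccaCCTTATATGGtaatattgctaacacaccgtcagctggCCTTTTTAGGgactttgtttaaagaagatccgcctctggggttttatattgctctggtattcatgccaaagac
ACTA1 (chr1:229434095-229434224, minus strand): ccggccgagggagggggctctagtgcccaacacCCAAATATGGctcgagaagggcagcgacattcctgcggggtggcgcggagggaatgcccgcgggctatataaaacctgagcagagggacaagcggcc
ACTG1 (chr17:81512800-81512929, minus strand): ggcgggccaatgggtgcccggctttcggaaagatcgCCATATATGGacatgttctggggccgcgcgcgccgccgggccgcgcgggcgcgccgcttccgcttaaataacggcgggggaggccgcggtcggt
FLNA (chrX:154374635-154374764, minus strand): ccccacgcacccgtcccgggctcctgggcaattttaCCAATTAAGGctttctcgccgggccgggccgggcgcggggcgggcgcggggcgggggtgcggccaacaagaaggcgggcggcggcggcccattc
ACTG2 held 2 matches, which began 110 and 73 bases before the start, and the other three held 1 each, at 97 bases in ACTA1 and 94 bases in ACTG1 and FLNA. ACTG1, the abundant cytoplasmic gamma actin, was at 5172, 4984 and 5434 CPM with VRTN siRNA (log2 change -0.004, SE 0.08, adjusted p = 0.99995). FLNA, the actin crosslinker filamin A, was at 1992, 1935 and 1878 CPM against 2233 to 2456 CPM in the controls (log2 change -0.29, SE 0.08, adjusted p = 0.0941). A match was present in 407 of 35116 windows in the table (1.16%). Among the listed contractile genes with a window it was present in 2 of 4 lower, 0 of 2 higher and 9 of 17 not called, so genes with a box were found on both sides of the threshold.

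Epithelial junction and keratin genes had 3 of 37 tested members lower and none higher, with a median log2 fold change of -0.27. Of the 34 members of at least 1 log2 CPM, 27 had a negative value and 13 had all 3 VRTN siRNA libraries below the controls, against 6.68% of all genes tested and 8.68% of those of at least 1 log2 CPM. KRT8, a keratin of simple epithelia (chromosome 12, 52897187 to 52949954, minus strand), was at 169, 173 and 166 CPM with VRTN siRNA and at 255 and 237 CPM with Luciferase and 296 and 255 CPM with Control siRNA (log2 change -0.62, SE 0.13, adjusted p = 0.00594). The VRTN siRNA libraries lay within a narrow range below all controls, but KRT8 has many processed copies that can share its reads, and against Luciferase alone the call was lost (adjusted p = 0.107). CDH1, the E-cadherin of cell junctions (chromosome 16, 68737225 to 68835548, plus strand), was at 144, 135 and 180.3 CPM against 195 and 289 CPM with Luciferase and 200.2 and 325 CPM with Control siRNA. It fell (log2 change -0.72, SE 0.14, adjusted p = 0.00404). Replicate 2 of each control siRNA was higher than replicate 1, and with replicate 1 of both controls alone the log2 change was -0.37. Against Luciferase alone the call of CDH1 was lost (adjusted p = 0.0602). DSP, the desmosomal protein desmoplakin, fell too (-1.14). The call of CDH1 was lost without VRTN replicate 2 (0.0597) and that of DSP without VRTN replicate 2 (0.230), VRTN replicate 3 (0.0940) or Luciferase replicate 1 (0.0614), and the list had 1 lower member without VRTN replicate 2 and 6 without Control replicate 1.

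Mesenchymal and fibroblast genes moved in both directions, 5 of 26 tested being higher and 2 lower, with a median of 0.42. CDH2, the N-cadherin of mesenchymal and neural cells (chromosome 18, 27950966 to 28177446, minus strand), was at 71.7, 72.1 and 39.8 CPM with VRTN siRNA and at 42.2 and 20.8 CPM with Luciferase and 33.8 and 17.04 CPM with Control siRNA. It rose by 1.11 (SE 0.23, adjusted p = 0.00733). Replicate 1 of each control siRNA was higher than replicate 2, and with replicate 1 of both controls alone the log2 change was 0.70. Against Luciferase alone the call was lost (adjusted p = 0.180). VRTN replicate 3 lay below the highest control, and the call was lost without VRTN replicate 1 (0.0798) or VRTN replicate 2 (0.0828). The type VI collagen chains COL6A2 and COL6A1 rose by 0.87 and 0.62. Without VRTN replicate 3 COL6A2 stood at 0.58 (adjusted p = 0.0534) and COL6A1 at 0.32 (adjusted p = 0.459), and neither was called. FN1 and ACTA2, described above, were the other members that rose. COL1A1 fell, as did the collagen-binding glycoprotein SPARC (-0.51), at 286 to 393 CPM against 472 to 509.9 CPM in the controls, a call lost without VRTN replicate 3 (0.134). Without VRTN replicate 1, 2 or 3 the list had 3 higher members, and without VRTN replicate 3 it had 1 lower. Summed over all 28 listed genes, the level ran from 3253 to 3852 CPM with VRTN siRNA and from 3715 to 4702 CPM in the controls. Within that sum COL1A1 alone averaged 678 CPM with VRTN siRNA and 1653 CPM in the controls. Of the 20 members of at least 1 log2 CPM, 16 had a positive value and 4 a negative one.

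**Figure D3:**
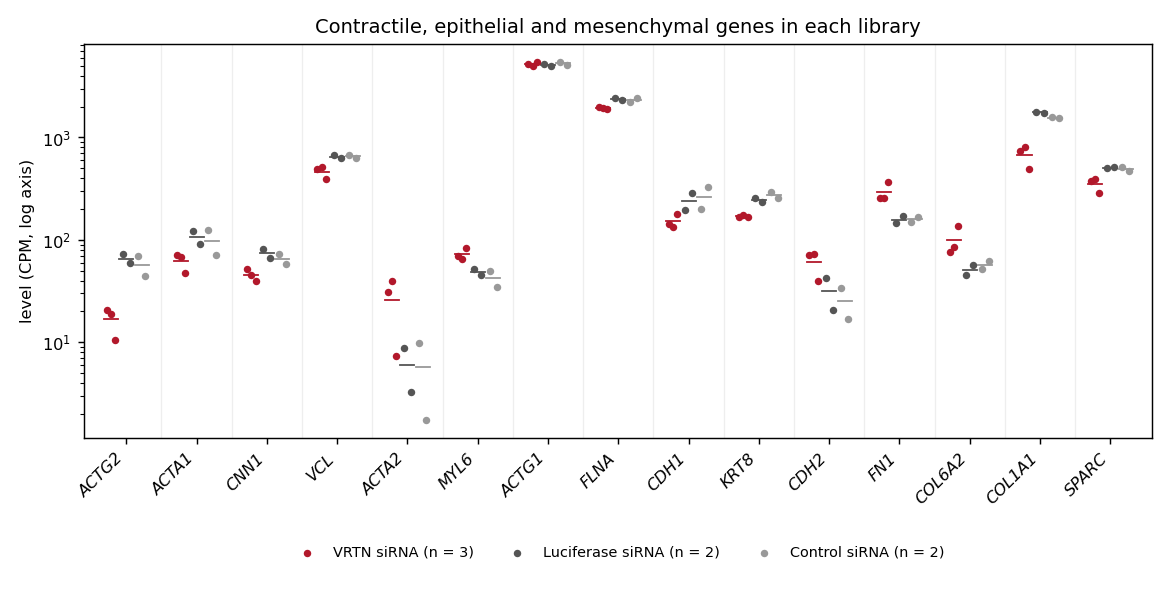
Level of contractile, epithelial and mesenchymal genes in each library (CPM, log axis), with points for VRTN siRNA (red, n = 3), Luciferase (dark grey, n = 2) and Control siRNA (light grey, n = 2) and lines at group means. ACTG2 and COL1A1 lie below the controls in every VRTN siRNA library and FN1 above them, while ACTG1 overlaps and ACTA2 and CDH2 each have 1 red point within the grey range.

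Targets of the Hippo pathway, whose effectors YAP and TAZ act with TEAD factors on growth and adhesion genes, had 4 of 25 members lower and none higher. CCN1, a matricellular protein and a standard YAP target, was at 119, 117 and 123 CPM with VRTN siRNA and at 169 and 189 CPM with Luciferase and 167 and 178 CPM with Control siRNA (log2 change -0.55, SE 0.10, adjusted p = 0.00238). AXL, a receptor tyrosine kinase, was at 42.4 to 71.5 CPM against 105 to 133 CPM (log2 change -0.995, SE 0.19, adjusted p = 0.00404). NUAK2, a kinase of actomyosin tension, was at 18.5 to 24.5 CPM against 30.9 to 52.6 CPM (log2 change -0.96, SE 0.19, adjusted p = 0.00387). Neither overlapped the controls. AMOTL1, a scaffold that binds YAP, fell too (-0.65). The list's median was -0.06. CCN1 lost its call with replicate 1 of the controls alone (adjusted p = 0.0894) and NUAK2 with replicate 2 alone (adjusted p = 0.162). The call of AXL was lost without VRTN replicate 3 (0.0638), and that of AMOTL1 without VRTN replicate 2 (0.0955), VRTN replicate 3 (0.274) or Control replicate 2 (0.112). The TEAD element GGAATG was found on either strand in 11.9% of all windows of 250 bases, and in 2 of 3 lower Hippo members with a window against 6 of 17 not called.

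In the laminin, collagen IV and integrin list 3 of 29 members were lower. These were the laminin-binding integrin subunits ITGA3 (-0.72) and ITGA6 (-0.82) and the basement membrane proteoglycan AGRN (-0.56), which bind or build the matrix under epithelial cells. ITGA6 was at 20.6, 18.1 and 15.99 CPM with VRTN siRNA and at 26.5 to 35.9 CPM in the controls. None of the 3 was called without VRTN replicate 2 or without VRTN replicate 3 (adjusted p = 0.079 and 0.0648 for ITGA3, 0.0771 and 0.114 for ITGA6, 0.0996 and 0.200 for AGRN). ITGA3 was also lost without VRTN replicate 1 (0.126) or Control replicate 1 (0.103), ITGA6 without Control replicate 2 (0.0817) and AGRN without Luciferase replicate 1 (0.0599). With a correction for GC content and transcript length, chosen after the data were seen, AGRN stood at -0.34, with an adjusted p of 0.292.

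Of the amino acid transporters, which feed protein synthesis, 6 of 32 tested were lower and 1 higher, with a median of -0.18. SLC7A5, the light chain of the LAT1 exchanger of large neutral amino acids (chromosome 16, 87830023 to 87869488, minus strand), was at 563, 547 and 756 CPM with VRTN siRNA and at 1177 and 1448 CPM with Luciferase and 1161 and 1535 CPM with Control siRNA (log2 change -1.10, SE 0.12, adjusted p = 1.07e-06). Its partner SLC3A2, the heavy chain that carries LAT1 to the membrane, was at 145, 137 and 174 CPM against 179 and 222 CPM with Luciferase and 213 and 258 CPM with Control siRNA (log2 change -0.52, SE 0.11, adjusted p = 0.0108). Both chains were below every control in each VRTN siRNA library. SLC38A5, which carries glutamine and other neutral amino acids, was at 28.8, 18.7 and 25.98 CPM against 49.6 and 62.4 CPM with Luciferase and 64.9 and 51.7 CPM with Control siRNA (log2 change -1.22, SE 0.18, adjusted p = 5.92e-05).

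The glutamine exchanger SLC1A5 (-0.54), the light chain SLC7A8 of the related exchanger LAT2 (-0.58) and the cationic amino acid carrier SLC7A1 (-0.49) also fell. SLC16A10, a carrier of aromatic amino acids, was the member that rose, at 8.93, 8.77 and 12.5 CPM against 1.97 to 3.06 CPM (log2 change 1.88, SE 0.34, adjusted p = 0.00154). SLC7A5 and SLC38A5 kept their call in every alternative run, and SLC16A10 lost it against Luciferase alone (adjusted p = 0.0517). The call of SLC3A2 was lost without VRTN replicate 1 (0.0894), VRTN replicate 2 (0.115), Luciferase replicate 2 (0.0675) or Control replicate 2 (0.0708). SLC1A5 lost its call without VRTN replicate 2 (0.0943) or Control replicate 2 (0.0817), and SLC7A8 without VRTN replicate 1 (0.0873) or VRTN replicate 3 (0.305). SLC7A1 was no longer called without VRTN replicate 1 (0.0972), VRTN replicate 2 (0.0642), VRTN replicate 3 (0.324), Luciferase replicate 1 (0.0679) or Control replicate 2 (0.111). Without VRTN replicate 1, VRTN replicate 2 or Control replicate 2 the list had 3 lower members, and without Luciferase replicate 1 it had 2 higher.

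Many of these carriers are known targets of ATF4, the transcription factor of the amino acid response, and 5 of 50 tested members of that list were lower and none higher. Of the 5, 4 were the transporters SLC7A5, SLC3A2, SLC7A1 and SLC1A5, and the fifth was VEGFA, the growth factor of blood vessels, at 6.48, 5.11 and 9.87 CPM against 14.8 to 18.3 CPM (log2 change -1.18, SE 0.25, adjusted p = 0.00892). That call was lost without VRTN replicate 1 (0.0749) or VRTN replicate 2 (0.1001). ATF4 itself was at 417, 425 and 443 CPM against 431 to 492 CPM (log2 change -0.10, SE 0.10, adjusted p = 0.834) and ASNS, the asparagine synthetase, at 11.3, 16.2 and 18.3 CPM against 12.5 to 19.2 CPM (log2 change -0.08, SE 0.24, adjusted p = 0.990). Neither passed the test, and both were named after their values were seen. Without VRTN replicate 2 the list had 1 lower member, and without VRTN replicate 1 or Control replicate 2 it had 2. The ATF4 element TGATGNAA was present on either strand in 3.14% of all windows, in 1 of 6 lower transporters with a window, SLC1A5, and in 1 of 17 not called.

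Among lipid genes the changes went both ways. SREBF1, the transcription factor of fatty acid synthesis, was at 72.97, 66.2 and 76.5 CPM with VRTN siRNA and at 101 and 114 CPM with Luciferase and 107 and 149.9 CPM with Control siRNA (log2 change -0.71, SE 0.13, adjusted p = 0.00300). Its target FASN, the fatty acid synthase, fell, at 1790.5 to 1933 CPM against 2249 to 2638 CPM in the controls (log2 change -0.37, SE 0.09, adjusted p = 0.0286). MSMO1, a sterol oxidase of cholesterol synthesis, rose, at 131 to 169.6 CPM against 81.7 to 109 CPM in the controls (log2 change 0.63, SE 0.12, adjusted p = 0.00336). In all, 3 of 31 members of the cholesterol and SREBP list were lower, FADS1 (-0.49) being the third, and 1 was higher. The call of FASN was lost without VRTN replicate 1 (0.139), VRTN replicate 2 (0.151), VRTN replicate 3 (0.0526), Luciferase replicate 2 (0.0594) or Control replicate 2 (0.187). FADS1 lost its call without VRTN replicate 1 (0.107), VRTN replicate 3 (0.158), Luciferase replicate 1 (0.0977) or Control replicate 2 (0.129). With the correction for GC content and transcript length FASN stood at -0.16, with an adjusted p of 0.563. Without VRTN replicate 1, VRTN replicate 3 or Control replicate 2 the list had 1 lower member. SREBF1 lost its call with Luciferase as the only control (adjusted p = 0.102) and with replicate 1 of both controls (adjusted p = 0.114). The call of MSMO1 was lost with Control as the only one (adjusted p = 0.174).

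**Figure D4:**
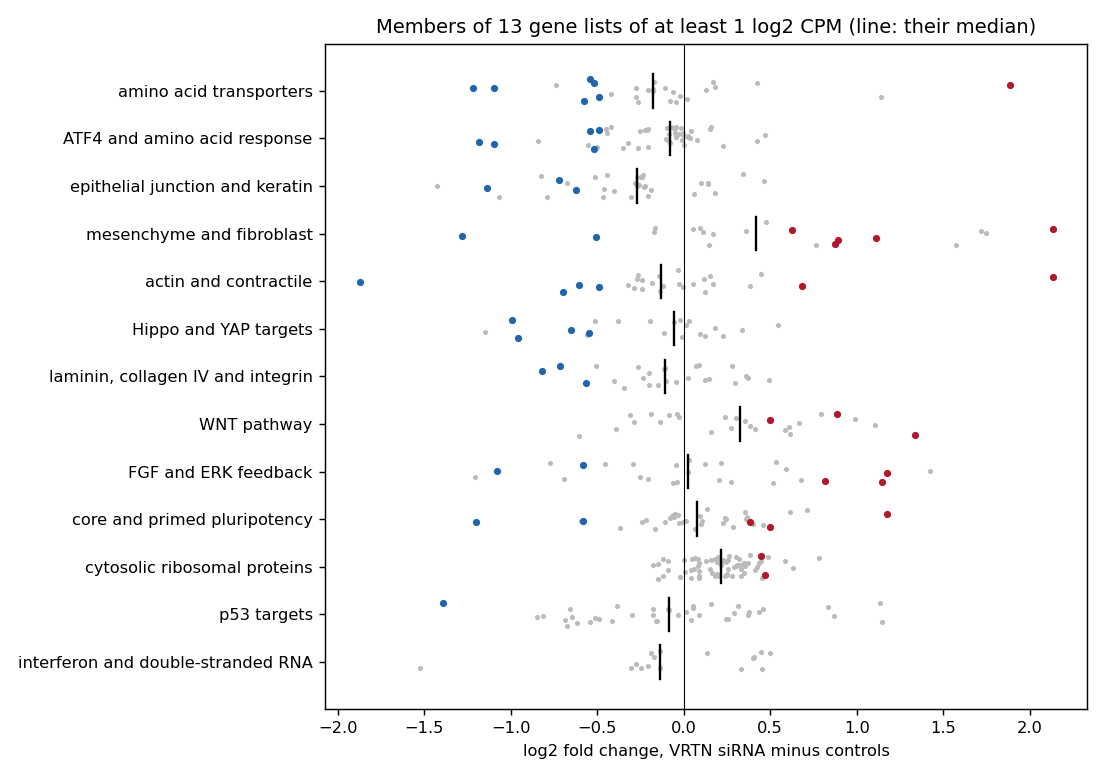
Log2 fold change of VRTN siRNA over controls for the members of 13 gene lists, each point a gene of at least 1 log2 CPM, red if called higher, blue if called lower and grey if not called, with a black line at the median of each list. Epithelial genes have a median of -0.27, WNT genes 0.33 and ribosomal protein genes 0.21, and most members of every list are grey.

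Of the core and primed pluripotency genes, 3 of 38 tested were higher and 2 lower, and the factors at the centre of the network did not pass the test. NANOG was at 117, 116 and 107 CPM with VRTN siRNA and at 98.2 and 73.1 CPM with Luciferase and 91.4 and 81.4 CPM with Control siRNA (log2 change 0.40, SE 0.16, adjusted p = 0.371). It was above all controls in each VRTN siRNA library, as POU5F1 was not (log2 change 0.25, SE 0.10, adjusted p = 0.409), and SOX2 overlapped as well (log2 change 0.10, SE 0.11, adjusted p = 0.871). UTF1, a chromatin-associated factor found in undifferentiated cells (chromosome 10, 133230274 to 133231558, plus strand), was at 26.5, 31.7 and 27.8 CPM against 62.8 and 71.00 CPM with Luciferase and 69.5 and 60.5 CPM with Control siRNA (log2 change -1.20, SE 0.16, adjusted p = 1.28e-05). That fall was called in every alternative run. ZIC2, a zinc finger factor of the primed state, rose by 0.50 and DPPA4, a chromatin factor, by 0.38. The remaining called members, DUSP6 (higher) and ETV4 (lower), are counted again among the FGF and ERK genes below. Without VRTN replicate 1 or VRTN replicate 2 the list had 2 higher members, and without VRTN replicate 3 it had 1. The call of ZIC2 was lost without VRTN replicate 3 (0.141), Luciferase replicate 2 (0.0986) or Control replicate 2 (0.164), and that of DPPA4 in all 7 fits that left out 1 library (adjusted p from 0.0638 to 0.215).

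Signalling through FGF and ERK is read from the genes that feed back on it, and 3 of 27 such genes were higher and 2 lower. DUSP6, a phosphatase that inactivates ERK (chromosome 12, 89347232 to 89353271, minus strand), was at 93.3, 91.99 and 65.3 CPM with VRTN siRNA and at 37.01 and 22.9 CPM with Luciferase and 61.9 and 29.8 CPM with Control siRNA (log2 change 1.17, SE 0.20, adjusted p = 8.57e-04). All 3 libraries were above the controls, although VRTN replicate 3 and Control replicate 1 nearly met, and against Control alone the call was lost (adjusted p = 0.140). IL17RD, the membrane inhibitor of FGF receptors called SEF, was at 104, 99.4 and 66.8 CPM against 47.9 and 36.7 CPM with Luciferase and 42.7 and 35.8 CPM with Control siRNA (log2 change 1.14, SE 0.19, adjusted p = 7.33e-04). IER3, an early ERK target, rose by 0.82, while the ETS factor ETV4 (-0.59) and the nuclear phosphatase DUSP5 (-1.08), also ERK targets, fell. The list's median was 0.02. The call of IER3 was lost without VRTN replicate 1 (0.0991) or VRTN replicate 2 (0.111), that of ETV4 without VRTN replicate 3 (0.0680) and that of DUSP5 without VRTN replicate 1 (0.0894), VRTN replicate 2 (0.0712) or VRTN replicate 3 (0.289).

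In the WNT list 3 of 32 members were higher and none lower, with a median of 0.33. FZD5, a receptor for WNT ligands (chromosome 2, 207762586 to 207769563, minus strand), was at 48.2, 48.3 and 74.1 CPM with VRTN siRNA and at 18.3 and 24.7 CPM with Luciferase and 21.9 and 25.3 CPM with Control siRNA (log2 change 1.34, SE 0.17, adjusted p = 1.21e-05). SFRP1, a secreted protein that binds and holds back WNT ligands (chromosome 8, 41261958 to 41309497, minus strand), was at 544, 635 and 576 CPM against 356 and 267 CPM with Luciferase and 323 and 317 CPM with Control siRNA (log2 change 0.89, SE 0.11, adjusted p = 3.81e-06). TCF7L1, the repressor that occupies WNT target genes in stem cells, rose by 0.50, a call lost without VRTN replicate 2 (0.0828), VRTN replicate 3 (0.212) or Control replicate 1 (0.0517). PRICKLE1, a cytoplasmic protein of planar cell polarity, was named for its large rise and is not counted among these 3 members. Its level was 35.7, 31.3 and 52.2 CPM against 15.1 and 18.03 CPM with Luciferase and 12.03 and 14.4 CPM with Control siRNA (log2 change 1.43, SE 0.19, adjusted p = 1.89e-05). FZD5, SFRP1 and PRICKLE1 showed no overlap between the groups and were called in every alternative run. Without VRTN replicate 2 or VRTN replicate 3 the list had 2 higher members, and without VRTN replicate 1 it had 4. Without Luciferase replicate 2 or Control replicate 2 the list had 5 higher members.

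Among Notch genes MAML2 rose and HES1, a repressor switched on by Notch, fell (-1.09), 1 of 30 tested in each direction. The call of HES1 was lost without VRTN replicate 1 (0.111), VRTN replicate 2 (0.138), VRTN replicate 3 (0.179) or Luciferase replicate 1 (0.0593). Without Luciferase replicate 2 or Control replicate 1 the list had 2 lower members. edgeR called 0 of 30 genes of the NODAL and TGF-beta list, and the unadjusted p was under 0.05 for 3 higher and 2 lower members, where 4.27% of all genes tested were higher and 5.13% lower at that p. DESeq2 called 0 and limma-voom 1 in each direction. The median of that list was 0.12. Without Luciferase replicate 1 edgeR called 3 of them, 2 higher and 1 lower. Without Luciferase replicate 2 or Control replicate 1 it called 1 in each direction, and without VRTN replicate 3 it called 1 lower.

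Growth and cell division genes were called singly. Of 41 G1/S genes of at least 1 log2 CPM, 26 had a negative value. All 3 VRTN siRNA libraries were below the controls for 9 and above for 0, against 8.68% and 6.91% of all genes at that level. Of 41 G2/M genes 28 had a positive value, with 6 above and 2 below. Of 33 genes of MYC targets and ribosome biogenesis 23 had a negative value, with 6 below and 1 above. CCND1, the cyclin that drives entry into the cycle (chromosome 11, 69641087 to 69654474, plus strand), was at 74.1, 72.7 and 40.7 CPM with VRTN siRNA and at 126 and 117 CPM with Luciferase and 124 and 111 CPM with Control siRNA (log2 change -0.94, SE 0.16, adjusted p = 0.00124). It was the 1 lower member of the 41 G1/S and replication genes. PTTG1, the securin that holds back separase, was the 1 higher member of the 41 G2/M genes, at 90.7, 90.4 and 81.02 CPM against 40.9 to 62.6 CPM (log2 change 0.78, SE 0.14, adjusted p = 0.00168). MYCN, the MYC family member of embryonic cells, fell, at 105 to 141 CPM against 164 to 206 CPM in the controls (log2 change -0.65, SE 0.12, adjusted p = 0.00171), 1 of 36 genes of the list of MYC targets and ribosome biogenesis. KDM2B, which brings Polycomb complexes to unmethylated CpG islands, fell, at 59.3 to 87.1 CPM against 106 to 132 CPM in the controls (log2 change -0.69, SE 0.13, adjusted p = 0.00238). It was the 1 of 41 chromatin genes called. SFN, a 14-3-3 protein of epithelia and of the p53 response, fell, at 6.62 to 8.53 CPM against 14.4 to 26.9 CPM in the controls (log2 change -1.39, SE 0.27, adjusted p = 0.00333). It was the 1 of 40 p53 targets called. All of these had no overlap with the controls. PTTG1 lost its call with Control as the only control (adjusted p = 0.140) and with replicate 1 of both controls (adjusted p = 0.0520), and SFN with replicate 2 of both (adjusted p = 0.0777). The list of p53 targets had 5 lower members without Luciferase replicate 2, 3 without Control replicate 1 or Control replicate 2, and 1 higher without VRTN replicate 3. Without Control replicate 1 the G1/S list and the MYC list each had 2 lower members, as had the G1/S list without Luciferase replicate 2 and the MYC list, with 1 higher, without Luciferase replicate 1. The chromatin list had 2 lower members without Luciferase replicate 2, 2 higher without Control replicate 1 and 1 higher without VRTN replicate 3 or Luciferase replicate 1.

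Genes of the cytosolic ribosome, which makes all proteins of the nuclear genome, had mostly small positive values. Of 71 members of at least 1 log2 CPM, 62 had a positive value and 26 had all 3 VRTN siRNA libraries above the controls, against 5.27% of all genes tested and 6.91% of those of at least 1 log2 CPM, with a median of 0.21. Only RPL38 (0.45) and RPS27 (0.47), proteins of the large and small subunit, passed the test, 2 of 72 tested. RPL38 was at 375, 355 and 418 CPM against 265 to 301 CPM and RPS27 at 211, 178 and 196 CPM against 136 to 147 CPM. Without VRTN replicate 1 or VRTN replicate 3 neither was called (adjusted p = 0.0677 and 0.160 for RPL38, 0.166 and 0.0716 for RPS27). RPL38 was also lost without Control replicate 2 (0.0617), and RPS27 without Luciferase replicate 2 (0.0756) or Control replicate 1 (0.0665). Ribosomal protein genes have processed copies that can share their reads. Of the 15 tested transcripts of the mitochondrial genome edgeR called 0, as did DESeq2 and limma-voom, and the unadjusted p was under 0.05 for 5 higher and 0 lower members. At that p 4.27% of all genes tested were higher and 5.13% lower, shares that stand beside the lists below too. Of the 15 mitochondrial transcripts 14 had a positive value, and 0 had all 3 VRTN siRNA libraries above the controls. Without Luciferase replicate 2 edgeR called 5 higher, and without VRTN replicate 1 or Control replicate 1 it called 1 higher.

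Introduced RNA can itself set off an interferon response, and siRNAs occupy the RNA interference machinery, so these lists were examined, since the siRNAs of the groups were of different types. Of 28 interferon and double-stranded RNA response genes edgeR called 0, DESeq2 1 higher and limma-voom 0, and the unadjusted p was under 0.05 for 5 higher and 2 lower members. EIF2AK2, the double-stranded RNA sensor PKR, was at 24.01, 20.8 and 20.5 CPM with VRTN siRNA and at 22.8 to 35.6 CPM in the controls (log2 change -0.31, SE 0.18, adjusted p = 0.620). Without Luciferase replicate 1, Control replicate 1 or Control replicate 2, edgeR called 1 higher. Of 17 RNA interference genes edgeR, DESeq2 and limma-voom called 0, and the unadjusted p was under 0.05 for 1 higher and 1 lower members. AGO2, the endonuclease that cuts siRNA targets, was at 74.8, 103 and 64.4 CPM against 68.4 to 84.6 CPM (log2 change 0.10, SE 0.14, adjusted p = 0.938). AGO2 and EIF2AK2 were chosen after their values were seen.

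Few genes of the lineages in which VRTN is known were expressed. Of the list of paraxial mesoderm, segmentation and HOX genes, 15 passed the filter on low counts and 5 had at least 1 log2 CPM; edgeR, DESeq2 and limma-voom called 0, and the unadjusted p was under 0.05 for 1 higher and 0 lower members. GDF11, a signal that positions the trunk and the tail, was at 12.6, 9.86 and 15.3 CPM with VRTN siRNA and at 7.52 to 10.7 CPM in the controls (log2 change 0.40, SE 0.25, adjusted p = 0.642). DLL1, a Notch ligand of segmentation, was low, at 2.16, 3.27 and 3.62 CPM against 0.200 to 0.825 CPM (log2 change 2.68, SE 1.04, adjusted p = 0.333), above every control in each library, and was named after its values were seen. Without Control replicate 1 edgeR called 1 higher. Of 19 primitive streak and endoderm genes edgeR and DESeq2 called 0 and limma-voom 2 higher, and the unadjusted p was under 0.05 for 2 higher and 2 lower members. FOXA2, an endoderm factor, was at 11.8, 10.2 and 9.002 CPM against 3.12 to 6.50 CPM (log2 change 1.22, SE 0.46, adjusted p = 0.299), above every control in each library but short of the threshold. FOXJ1, the master regulator of motile cilia, was the 1 lower member of 31 cilium genes, at 1.10, 1.49 and 0.576 CPM against 4.48 and 10.8 CPM with Luciferase and 2.89 and 8.37 CPM with Control siRNA (log2 change -2.64, SE 0.43, adjusted p = 5.27e-04). Its call was lost with limma-voom (adjusted p = 0.0906) and with replicate 1 of both controls (adjusted p = 0.0552).

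Against SALL4 siRNA, harvested at the same time, 482 of 19772 genes (2.44%) differed, 139 higher (0.703%) and 343 lower (1.73%) with VRTN siRNA. SALL4 encodes a zinc finger factor of pluripotent cells, and its siRNA was made enzymatically, unlike that against VRTN. The count ran from 248 without SALL4 replicate 1 to 879 without SALL4 replicate 3, with 275 without SALL4 replicate 2, 299 without VRTN replicate 1 and 304 without VRTN replicate 2. The genes given below as differing kept their call in each of the 6 fits. The 6 largest differences in each direction were picked for that and for no overlap between VRTN and SALL4 siRNA libraries.

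Of the genes named here ACTG2 showed the widest gap, at 20.7, 18.9 and 10.6 CPM with VRTN siRNA and at 658, 578 and 717 CPM with SALL4 siRNA, with the controls between them at 44.6 to 72.7 CPM. The difference was -5.28 (SE 0.20, adjusted p = 7.28e-19) on the log2 scale. LCP1 was at 3.47 to 4.11 CPM against 51.6, 57.2 and 93.1 CPM with SALL4 siRNA (log2 change -4.16, SE 0.29, adjusted p = 8.92e-12), again with the controls between. APELA was at 3.58 to 5.80 CPM against 19.8, 18.1 and 32.9 CPM (log2 change -2.26, SE 0.27, adjusted p = 1.36e-06). ALCAM, an adhesion molecule (-2.13), was lower too. TRIM22, an interferon-inducible ubiquitin ligase, was at 25.8, 29.7 and 17.2 CPM against 111, 98.7 and 76.5 CPM (log2 change -1.98, SE 0.26, adjusted p = 6.60e-06), with the VRTN siRNA libraries inside the control range of 12.9 to 31.01 CPM.

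Other genes were higher with VRTN than with SALL4 siRNA. POLR3G, the RNA polymerase III subunit of stem cells, was at 72.4, 63.5 and 56.03 CPM against 17.8, 18.7 and 32.7 CPM with SALL4 siRNA (log2 change 1.48, SE 0.19, adjusted p = 6.37e-06). The noncoding RNA LNCPRESS2 was at 47.4, 65.9 and 42.3 CPM against 23.7, 20.4 and 19.5 CPM (log2 change 1.29, SE 0.18, adjusted p = 1.26e-05). CHGA, the chromogranin of secretory granules, was at 26.9, 29.9 and 27.3 CPM against 9.35, 11.1 and 9.33 CPM (log2 change 1.50, SE 0.21, adjusted p = 1.97e-05). CYP26A1, which degrades retinoic acid, HMOX1, which breaks down haem, and SLC43A1, an amino acid carrier, were higher by 1.47, 1.51 and 1.58. Without SALL4 replicate 3 the value for SLC43A1 was 2.43. Against the controls CYP26A1 overlapped and was not called (log2 change 0.80, adjusted p = 0.118). CHGA rose by 0.76 (adjusted p = 0.0344), a call not kept in all 7 fits that left out 1 library. With SALL4 siRNA against the controls CYP26A1 stood at -0.68 and CHGA at -0.73. Several genes that fell against the controls were also below the SALL4 siRNA libraries. UTF1 was at 73.6, 50.2 and 62.8 CPM with SALL4 siRNA (log2 change -1.12, SE 0.16, adjusted p = 3.81e-05). SLC7A5 was at 1379, 1269 and 976 CPM (log2 change -0.96, SE 0.13, adjusted p = 8.49e-06) and CCND1 at 179, 175 and 108 CPM (log2 change -1.30, SE 0.17, adjusted p = 8.55e-06). COL1A1 was not called in this comparison, at 1250.2, 1069 and 479 CPM with SALL4 siRNA (log2 change -0.46, SE 0.19, adjusted p = 0.261). ENTREP1 (0.14, adjusted p = 0.798), FZD5 (0.34, 0.464), FN1 (0.17, 0.641) and CDH1 (0.05, 0.982) were not called either. With SALL4 siRNA against the controls, ENTREP1 and FZD5 rose by 1.00 each and FN1 by 0.72. COL1A1 and CDH1 stood at -0.82 and -0.77. Each was called there (adjusted p = 1.18e-05, 4.57e-04, 2.47e-04, 0.00498 and 9.95e-04 in that order).

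**Figure D5:**
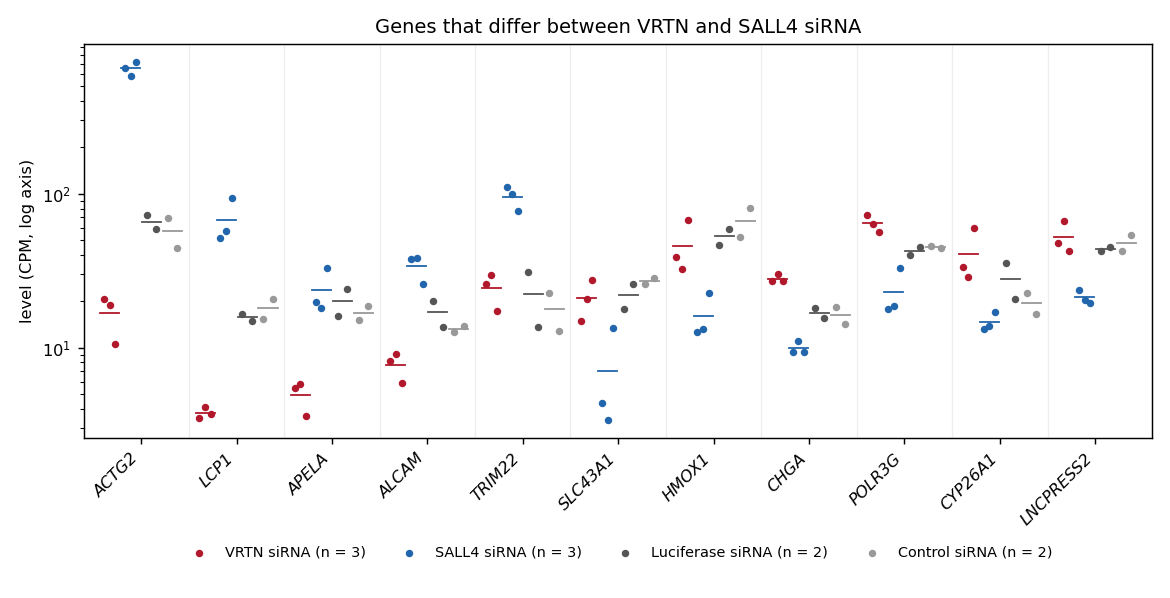
Level of 11 genes in each library (CPM, log axis) with VRTN siRNA (red, n = 3), SALL4 siRNA (blue, n = 3), Luciferase (dark grey, n = 2) and Control siRNA (light grey, n = 2), lines marking group means. The 5 genes on the left are lower with VRTN than with SALL4 siRNA and the 6 on the right higher, and for ACTG2 and LCP1 the control points lie between the red and the blue points.

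The genes called lower had a median GC content of 57.5%, those called higher 48.3%, and all genes of at least 4 log2 CPM 51.6%. With the fold changes adjusted for GC content and transcript length, an alternative chosen after the data were seen, 209 genes were called, 95 higher and 114 lower. Of the genes described above, AGRN and FASN lost their call with it, as did ACTA1 (-0.65, adjusted p = 0.0635), DPPA4 (0.33, adjusted p = 0.0705), DUSP5 (-1.03, adjusted p = 0.0605) and RPS27 (0.34, adjusted p = 0.140). VRTN replicate 3 stood apart from the other VRTN siRNA libraries in several of the genes above, with more SERPINB9, FN1 and COL6A2 and less COL1A1, CCND1 and CDH2, and its correlation with them over log2 CPM was 0.970 and 0.969, against 0.979 between replicates 1 and 2.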

How the data were processed

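The deposited table holds raw gene counts for 60675 Ensembl identifiers, which the authors made, per the submitters' processing notes, with STAR 2.4.0.1, HTSeq 0.9.1 and GRCh38. The annotation release, the strand setting and the treatment of shared reads are not given in the sources used here. A gene name table gave symbols for 56558 identifiers and GENCODE 29 for 497, with positions, which left 3620 without one.

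Genes were filtered with filterByExpr (19772 kept, 40903 left out) and scaled by TMM. The quasi-likelihood test of edgeR 4.0.16 (R 4.3.3) was fitted over 16 libraries in 6 groups, and VRTN siRNA was compared with the average of Luciferase and Control siRNA. A call is a Benjamini-Hochberg adjusted p under 0.05 over all genes tested, two-sided, and each SE was taken from the fold change and its F statistic, as the size of the log2 fold change over the root of F. The code was tested on simulated data. Promoter windows are from RefSeq. Floors of 3 counts cover counting error only, since reads carry no molecular identifiers.

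The 37 gene lists (1092 genes) and the comparison were chosen with earlier results of these data known. Genes are named by a rule: VRTN and its neighbours, the core factors and up to 4 called members of each list. Added to these were the 12 largest changes and 6 most abundant changed genes in each direction, and 6 genes in each direction against SALL4. The largest and most abundant changes had to reach 4 log2 CPM and be called in all 7 fits that leave out 1 library. They also had to show no overlap between VRTN siRNA and control libraries. The genes against SALL4 had to reach 4 log2 CPM and be called in every fit that leaves out 1 library. For them, VRTN and SALL4 siRNA libraries could not overlap. Not every gene selected is reported. Alternatives were other scalings and filters, a replicate block, each control siRNA or replicate number alone, the 7 libraries alone, DESeq2 1.42.0, limma-voom (limma 3.58.1), leaving out each library, and, added later, a correction for GC content and transcript length.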

Additional observations from a re-analysis of the deposited data

How the results depend on the processing

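The 223 calls against both controls became 397 without a filter on low counts (164 higher), 392 with DESeq2 (150 higher), 348 with limma-voom (157 higher), 89 against Luciferase alone and 95 against Control alone, and 135 to 271 with 1 library left out. DESeq2 shared 215 of the 223 and limma-voom 194. The 482 calls against SALL4 became 726 without the filter, 897 with limma-voom and 248 to 879 with 1 library left out. Where a control siRNA was left with 1 library, that library was assumed to vary like the other groups. The cause was not tested, except that leaving out libraries reduces the number compared. VRTN itself was called throughout, from -2.66 to -2.83. Of 84 called genes checked singly, 44 kept their call in all 7 fits that left out 1 library and 31 in every alternative, and 0 changed sign. LIN52, not called, stood at 0.16 and changed sign against Luciferase alone (-0.13), without VRTN replicate 2 (-0.31) and without Luciferase replicate 1 (-0.05), within a range from -0.31 to 0.45 over the fits that left out 1 library. The added correction for GC content and transcript length gave 209 calls, and 265 with a replicate block.

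With the replicate number as a block, 283 genes were called against the controls and 686 against SALL4. Deviations from the group means correlated at 0.369 between same-numbered Luciferase and Control libraries. Between their replicate 1 and VRTN replicate 1 the values were 0.281 and 0.134, but for replicate 2 they were -0.223 and -0.158. With 2 libraries per control siRNA, the deviations of replicate 2 are those of replicate 1 with the sign reversed. The values for replicate 2 are therefore not separate evidence on a pairing. The numbers were not taken to pair the samples. The controls' replicate 1 alone gave 159 calls and replicate 2 alone 241.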
